A study of Mus musculus with 12 samples.

Results

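Leukaemic cells without c-kit on their surface were compared between mouse leukaemias labelled Dnmt3b knock-in (leukaemias 81, 83 and 85) and leukaemias labelled wild type (73, 75 and 79). The comparison uses 6 of the 12 arrays of the series, 3 per genotype, assigned by their genotype and sort labels. The other 6 arrays hold the c-kit-positive cells of the same leukaemias. They enter the statistical model (limma) as separate samples. Its p-values, standard errors (SE) and confidence intervals therefore draw on the spread within the groups of all 12 arrays. All 6 leukaemias, the wild-type ones included, carried the fusion oncogene MLL-AF9. The knock-in arrays carry an overexpression label for Dnmt3b, and the promoter behind it, any inducing drug, and the strain, age and sex of the mice are not given in the sources used here. The titles name bone marrow and the source field names leukaemic spleen, so the tissue is unsettled. Nothing in the labels ties a leukaemia number to a mouse of its own, and p-values measure the spread between these samples, which may be technical in part.

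Dnmt3b is a de novo DNA methyltransferase, which adds methyl groups to cytosine at CpG dinucleotides that carried none. MLL-AF9 holds myeloid cells in an immature state by keeping a stem cell transcription programme active. Neutrophils mature from such progenitors in steps that can be read from their granules. Primary granule proteins are made first, those of secondary and tertiary granules follow in myelocytes and later cells, and surface receptors for chemokines and bacterial peptides appear on the mature cell. The receptor c-kit binds stem cell factor and is lost as myeloid cells mature.

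Values are log2 RMA intensities, in which a difference of 1 is a 2-fold change. The 6 arrays had medians of 5.60 to 5.71. The correlation between arrays over the 19152 genes tested (Pearson r, across genes) was 0.973 to 0.980 among the wild-type arrays, 0.928 to 0.967 among the knock-in arrays and 0.941 to 0.972 between the genotypes. The lowest value was between knock-in leukaemias 81 and 85, so these 2 arrays of one group were less alike than any pair drawn from both groups.

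Dnmt3b RNA did not separate the groups. It read 6.25, 6.38 and 6.10 in wild-type leukaemias 73, 75 and 79, and 6.16, 6.34 and 6.64 in knock-in leukaemias 81, 83 and 85. Only leukaemia 85 lay above all wild-type arrays, and leukaemias 81 and 83 lay among them. The knock-in mean was higher by 0.14 on the log2 scale (95% confidence interval -0.15 to 0.43, or 0.899-fold to 1.34-fold, limma's adjusted p = 0.948, n = 3 per genotype). Exchanging the 6 arrays in an exact two-sided permutation test gave p = 0.5, and 3 arrays against 3 cannot go below 0.1. The label therefore names the groups below and does not stand for a measured level of this RNA. Kit, the gene of the sorted receptor, read 6.69, 6.72 and 6.57 in the wild-type and 6.47, 6.87 and 6.75 in the knock-in c-kit-negative arrays. All 6 lay below the c-kit-positive arrays, which read 7.88 to 8.34, and the genotypes overlapped (difference 0.04, exact permutation p = 0.8).

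Of the 19152 genes tested, 12 (0.0627%) passed an adjusted p of 0.05, 11 higher (0.0574%) and 1 lower (0.00522%) in the knock-in leukaemias. The 11 that rose were Ltf, Ly6g, Chil1, Ifitm3, Cxcr2, Fpr2, Igh-VS107, Mecom, Wfdc21, Clec4a3 and Slfn2, and the 1 that fell was H2-Q10. Neutrophil granule and receptor genes made up the upper end of this list. For each of the 12 genes, every knock-in array lay on the same side of every wild-type array. Such a separation occurred in 8.88% of all genes tested (4.22% with the knock-in arrays higher and 4.66% with them lower). At an unadjusted p of 0.05, 447 genes were higher (2.33%) and 721 lower (3.76%). A difference of 2-fold or more was seen in 45 genes, 29 higher (0.151%) and 16 lower (0.0835%).

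**Figure D1:**
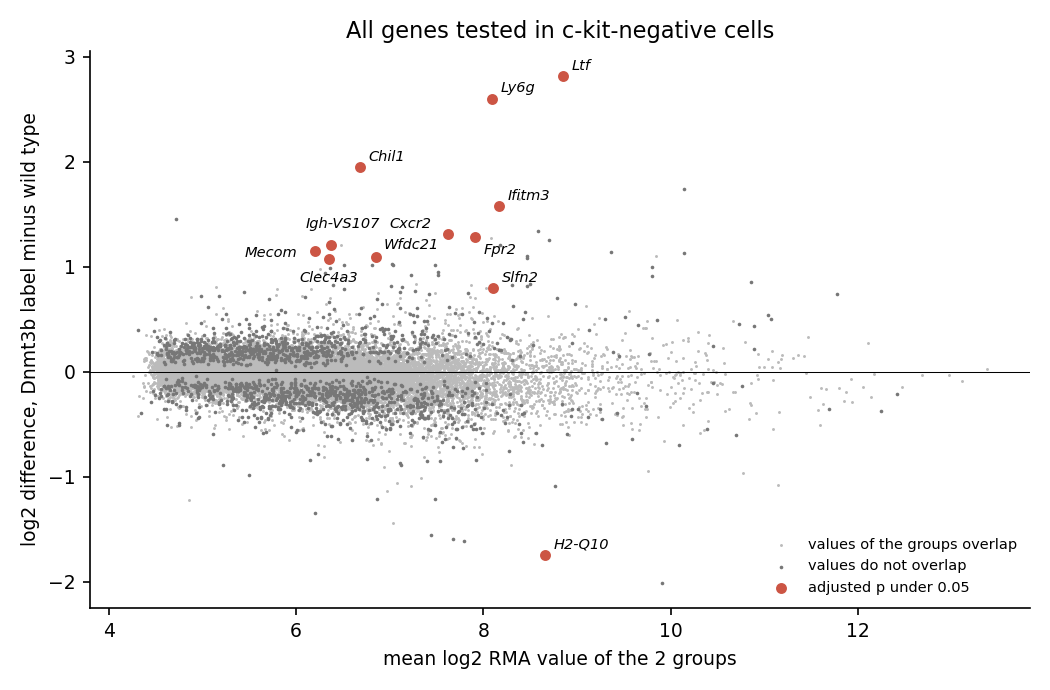
Difference between the genotypes in c-kit-negative cells (vertical axis, log2, Dnmt3b label minus wild type, 3 arrays each) against the mean log2 RMA value of both groups (horizontal axis) for the 19152 genes tested. Dark points are genes whose groups did not overlap and large points are the 12 genes past an adjusted p of 0.05, which lie between -1.74 (H2-Q10) and 2.82 (Ltf).

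Ltf encodes lactoferrin, the iron-binding protein of secondary granules. It read 7.62, 6.82 and 7.88 in wild-type leukaemias 73, 75 and 79 and 10.71, 10.12 and 9.95 in knock-in leukaemias 81, 83 and 85. The lowest knock-in array lay 2.07 above the highest wild-type array, and the difference was 2.82 (SE 0.30, 7.04-fold, adjusted p = 0.00356 with limma). Ly6g, a lipid-anchored surface protein that marks mouse neutrophils, read 6.88, 6.33 and 7.16 against 9.62, 9.25 and 9.31. The gap between the groups was 2.09, and the difference of 2.60 (SE 0.23, 6.07-fold) had the smallest adjusted p of all genes, 0.000772. Chil1, a chitinase-like protein of neutrophil granules, read 6.20, 5.60 and 5.31 against 7.50, 7.77 and 7.68. Its 3 knock-in values lay within 0.27 of each other, closer together than the wild-type values, and its difference was 1.95 (3.86-fold, adjusted p = 0.00862).

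Receptors and other products of mature neutrophils formed the next group. Cxcr2, the chemokine receptor that draws neutrophils out of the marrow, read 6.90, 6.96 and 7.03 in the wild-type arrays and 8.54, 8.23 and 8.06 in the knock-in arrays. The wild-type values were tightly grouped and the difference was 1.31 (2.48-fold, adjusted p = 0.0179 with limma). Fpr2, a receptor for formylated bacterial peptides, read 7.45, 6.83 and 7.54 against 8.44, 8.48 and 8.74, a difference of 1.28 (2.43-fold, adjusted p = 0.0226). Wfdc21, a secreted WAP-domain protein of neutrophils, read 6.13, 6.61 and 6.17 against 7.38, 7.21 and 7.59, a difference of 1.09 (adjusted p = 0.0319). For all of these the gap between the groups was at least 0.60. Clec4a3, a C-type lectin receptor of myeloid cells, read 5.84, 5.84 and 5.76 in the wild-type arrays, and the knock-in arrays ran from 6.54 to 7.11. Its difference was 1.07 (2.10-fold, adjusted p = 0.00862), and leukaemia 85 was the lowest of the knock-in arrays.

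Interferon-inducible products were also among the 12. Ifitm3, a membrane protein that blocks viral entry, read 7.81, 7.50 and 6.81 against 9.41, 8.54 and 8.91, a difference of 1.58 (2.99-fold, adjusted p = 0.0319 with limma). With the leukaemia number as a block its adjusted p was 0.0534. Slfn2, a Schlafen family protein linked to quiescence of immune cells, read 7.75, 7.62 and 7.76 against 8.57, 8.68 and 8.27. It had the smallest difference of the 12 genes, 0.79 (1.73-fold, adjusted p = 0.0487).

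The remaining genes past the threshold belong to other systems. Mecom encodes Evi1, a zinc finger transcription factor of blood stem cells. It read 5.97, 5.58 and 5.32 in the wild-type arrays and 6.87, 6.58 and 6.88 in the knock-in arrays, a difference of 1.15 (2.22-fold, adjusted p = 0.0487 with limma). A second Mecom probe set differed by 0.45. Igh-VS107, an immunoglobulin heavy chain variable segment, read 5.62, 5.88 and 5.79 against 6.99, 6.61 and 7.32, a difference of 1.21 (adjusted p = 0.0103). A second probe set of this segment was dim, at 3.19 to 3.82 on all 6 arrays, and differed by 0.33. The gene that fell was H2-Q10, a nonclassical class I gene. It read 9.18, 9.65 and 9.78 in the wild-type arrays and 8.29, 8.06 and 7.02 in the knock-in arrays, with leukaemia 85 lowest, and the difference was -1.74 (3.35-fold lower, adjusted p = 0.0319). A second H2-Q10 probe set differed by -0.05, so the 2 probe sets of this gene disagree, and genes of this family share sequence. With the probe sets of a gene averaged, H2-Q10 differed by -0.90 (adjusted p = 0.116 with limma) and Mecom by 0.80 (adjusted p = 0.0861), and neither passed.

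**Figure D2:**
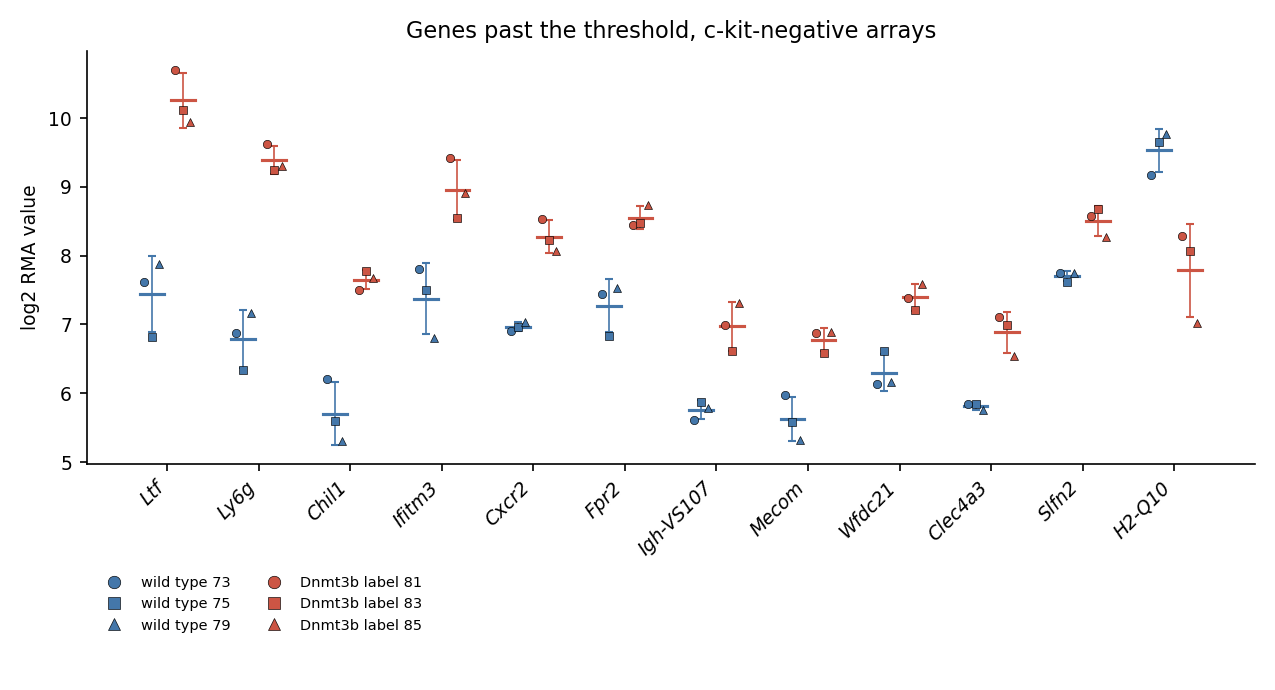
Log2 RMA value on each c-kit-negative array for the 12 genes past the threshold, with wild-type leukaemias 73, 75 and 79 in blue and Dnmt3b-labelled leukaemias 81, 83 and 85 in red. Bars are the group mean and whiskers 1 SD (n = 3). In no gene do the groups overlap, and the widest gaps are those of Ly6g (2.09) and Ltf (2.07).

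How far these calls rest on single leukaemias varied. Ly6g passed in all 20 alternative fits that were run. Ltf lost its call only when the 6 c-kit-negative arrays were fitted alone (adjusted p = 0.0562), and Chil1 lost it in 5 fits. The other 9 genes lost theirs in 6 to 13 fits, always with the direction kept. The total was 3 genes without leukaemia 73, 3 without 75, 5 without 79, 83 without 81, 4 without 83 and 29 without 85. In the fit of the 6 arrays alone it was 1, Ly6g.

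The stretches before the start sites of some of these genes are shown because Dnmt3b acts at CpG and the windows differ in CpG content. The RefSeq promoter table (GRCm38.p6, windows of 250 bases before and 50 after each start) held a window for 10 of the 12 genes. The 250 bases before the start are printed below for the 3 genes with the largest rise, for Mecom and for H2-Q10. Ly6g and Mecom each had a second window, which is not printed. Capitals mark matches, on either strand, to TTNNGNAA or TTGCNNAA (both C/EBP-like, and able to overlap), to the PU.1-like motif GAGGAA, to the interferon response motif and to the TATA motif.
Ltf (chr9:111019042-111019291, plus strand): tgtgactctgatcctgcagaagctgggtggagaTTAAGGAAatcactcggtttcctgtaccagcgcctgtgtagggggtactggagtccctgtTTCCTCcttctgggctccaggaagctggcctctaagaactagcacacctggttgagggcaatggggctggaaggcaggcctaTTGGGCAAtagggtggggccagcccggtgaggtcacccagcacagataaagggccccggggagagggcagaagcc
Ly6g (chr15:75155011-75155260, plus strand): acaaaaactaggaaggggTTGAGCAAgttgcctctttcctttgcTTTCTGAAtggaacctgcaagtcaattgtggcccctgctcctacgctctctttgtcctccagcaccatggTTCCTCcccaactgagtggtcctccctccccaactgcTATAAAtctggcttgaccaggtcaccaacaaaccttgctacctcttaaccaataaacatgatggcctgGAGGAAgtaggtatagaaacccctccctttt
Chil1 (chr1:134181906-134182155, plus strand): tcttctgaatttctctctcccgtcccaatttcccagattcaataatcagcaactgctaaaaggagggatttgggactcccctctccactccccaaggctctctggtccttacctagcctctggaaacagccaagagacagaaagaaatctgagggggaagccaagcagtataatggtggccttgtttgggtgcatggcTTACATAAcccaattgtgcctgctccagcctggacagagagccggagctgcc
Mecom (chr3:30509760-30510009, minus strand): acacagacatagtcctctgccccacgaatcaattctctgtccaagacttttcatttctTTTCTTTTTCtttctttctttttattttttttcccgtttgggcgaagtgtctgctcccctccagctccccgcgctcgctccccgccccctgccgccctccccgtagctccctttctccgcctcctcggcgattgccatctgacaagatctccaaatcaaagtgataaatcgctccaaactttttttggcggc
H2-Q10 (chr17:35469839-35470088, plus strand): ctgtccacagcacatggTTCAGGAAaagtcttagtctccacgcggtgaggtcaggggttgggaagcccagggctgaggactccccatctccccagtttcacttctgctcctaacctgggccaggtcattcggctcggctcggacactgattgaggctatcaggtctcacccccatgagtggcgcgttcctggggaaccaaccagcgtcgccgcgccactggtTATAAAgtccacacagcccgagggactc
CpG was sparse in most windows of the genes that rose. Ltf had 4 CpG in 300 bases, Ly6g 1 and Chil1 3, whereas the first window of Mecom and that of H2-Q10 each had 19. In first windows, the ratio of observed to expected CpG was below 0.6 in 8 of the 9 genes that rose and have a window. Mecom was the exception at 1.02. The second Mecom window had 9 CpG, a ratio of 0.488 and 1 match to TTNNGNAA. Of all 32851 windows in the table, 35.8% reached 0.6, and the median ratio was 0.384. Counting the first window of each gene, TTNNGNAA occurred in 6 of these 9 genes and in 40.7% of all windows, TTGCNNAA in 3 (10.8% of all) and GAGGAA in 4 (28.3% of all). The interferon response motif occurred in 2 (Ifitm3 and Mecom, 3.44% of all), CCAAT in 6 (37.4%), the TATA motif in 2 (13.6%) and the AP-1 motif in 0 (5.20%). These matches are a description of the letters in the windows, and no binding or methylation was measured here.

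The wider granule and neutrophil lists stood higher on average in each knock-in leukaemia. A tested member is one above log2 4.61 on at least 3 of the 12 arrays, and members below that were not tested. Of 25 tested genes of secondary and tertiary granules, 2 passed the threshold (Ltf and Chil1), 9 had all knock-in arrays above all wild-type arrays and 0 the reverse, against 4.22% and 4.66% of all genes. The median difference was 0.33 (0.53 without wild-type leukaemia 79), against 0.00 for all genes tested. Compared with the wild-type mean, the mean of this list was higher by 0.51, 0.56 and 0.52 in leukaemias 81, 83 and 85. Wild-type leukaemias themselves ranged from -0.25 to 0.25 around their mean. Lrg1, a glycoprotein induced in maturing granulocytes, read 6.88, 7.34 and 6.90 against 7.95, 7.98 and 8.04 (difference 0.95, adjusted p = 0.116). Mmp8, neutrophil collagenase, read 8.84, 8.14 and 9.40 against 9.40, 10.26 and 10.15 (difference 1.14, adjusted p = 0.428). Neither passed, and in Mmp8 the nearest arrays of both groups were equal to 2 decimals.

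Among 27 tested late neutrophil genes, 4 rose (Ly6g, Cxcr2, Fpr2 and Wfdc21), 0 fell, and 11 (40.7%) separated with the knock-in arrays higher. Of all genes, 0.0574% passed as higher and 4.22% separated in this direction. The list median was 0.41, or 0.28 without leukaemia 83. Csf3r, the receptor for granulocyte colony-stimulating factor, read 7.87, 7.97 and 7.89 in the wild-type arrays and 9.23, 9.20 and 8.61 in the knock-in arrays. Its difference of 1.11 had an adjusted p of 0.0906, and it passed with the leukaemia as a block (0.0322). Members of the same list also ran the other way. The stefin genes Stfa1, Stfa2 and Stfa3, inhibitors of cysteine proteases, differed by -1.08, -1.05 and -1.09 with none passing, and are named here after their values were seen. Stfa3 was 9.94 in wild-type leukaemia 79 and 5.74 to 7.43 on the other 5 arrays.

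Genes of the earlier, primary granules did not follow as a group. Of 18 tested members 0 passed, 2 separated upward (11.1%, against 4.22% of all genes) and 1 downward (5.56%, against 4.66%). Their median of 0.22 became 0.01 without leukaemia 81, 0.07 without 73 and 0.12 without 79. Lyz2, lysozyme, read 9.57, 9.90 and 9.25 against 10.98, 10.61 and 10.53 (difference 1.13, adjusted p = 0.211). Nkg7, a granule membrane protein shared with cytotoxic lymphocytes, differed by 1.01 (adjusted p = 0.560). Cst7, an inhibitor of cysteine proteases, read 7.37, 8.08 and 6.95 against 6.40, 6.25 and 6.11, a difference of -1.21 (adjusted p = 0.560). The list mean stood 0.47 above the wild-type mean in leukaemia 81, at -0.09 in 83 and at -0.04 in 85. Wild-type leukaemias 73, 75 and 79 themselves stood at -0.15, 0.40 and -0.25. Of 11 tested genes of the NADPH oxidase and antimicrobial oxidants, 0 passed and 2 separated upward (18.2%, against 4.22% of all genes). These were Cybb, the catalytic subunit, and Hvcn1, a proton channel (0.85 and 0.48). The mean of the oxidase list against the wild-type mean was 0.45, 0.25 and -0.04 in leukaemias 81, 83 and 85. In a bulk sample, more cells of a type and more RNA per cell cannot be told apart.

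Myeloid transcription factors showed little shift. Their 25 tested members had a median of -0.01, and none passed with limma. Cebpd, a C/EBP factor of late granulocytes, separated upward by 0.41 (adjusted p = 0.788), and Cebpa, which acts earlier in the lineage, differed by -0.40 with overlapping groups. Monocyte and macrophage markers, 14 tested, had a median of 0.07 (-0.06 without leukaemia 81 and 0.24 without 85), 0 separations, and list means of 0.28, 0.16 and -0.31 against the wild-type mean in leukaemias 81, 83 and 85.

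Most interferon genes had a higher mean in the knock-in leukaemias, and few passed. Of 9 tested interferon-inducible membrane and Schlafen genes, 9 had a difference above 0, 2 passed (Ifitm3 and Slfn2) and 5 separated upward (55.6%). Over all genes tested, 49.4% had a difference above 0, 0.0574% passed as higher and 4.22% separated upward. The mean of the membrane and Schlafen list was higher by 0.60, 0.58 and 0.54 in leukaemias 81, 83 and 85. Ifitm1 differed by 0.46 (adjusted p = 0.560) and Slfn4 by 0.62 (adjusted p = 0.646). Of 18 tested type I interferon response genes, 0 passed and 6 separated upward (33.3%, against 4.22% of all genes), with a median of 0.34. Their list mean was higher by 0.66 in leukaemia 81, 0.35 in 83 and 0.05 in 85, while the wild-type arrays lay within 0.06 of their mean. Zbp1, a sensor of nucleic acids, read 6.66, 6.77 and 6.76 against 7.75, 7.67 and 7.06 (adjusted p = 0.233). Oas3, which makes the activator of RNase L, read 6.19, 6.02 and 6.11 against 7.08, 6.82 and 6.21 (adjusted p = 0.569). In both genes leukaemia 85 lay close to the wild-type arrays. The 12 tested genes of the interferon gamma response, among them guanylate-binding proteins, had list means of 0.48, 0.30 and 0.06. Of these 12, 5 separated upward (41.7%, against 4.22% of all genes). In the type I and gamma lists leukaemia 81 was thus highest and 85 lowest. The membrane and Schlafen list had the same order, but its knock-in means lay much closer together (0.60, 0.58 and 0.54). Irf1, a transcription factor of this response, read 6.03, 5.94 and 6.07 against 6.73, 7.23 and 6.08. Socs1, its feedback inhibitor, differed by 0.36, and neither passed (adjusted p = 0.689 and 0.673).

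Genes of antigen presentation did not move as a block. Of 17 tested class I and peptide loading genes, H2-Q10 fell and 0 rose. The median was 0.13 (0.00 without leukaemia 81 and 0.26 without 85), and the list mean against the wild-type mean was 0.31, 0.06 and -0.27 in leukaemias 81, 83 and 85. H2-M3, a nonclassical class I gene, differed by 0.29 and Psmb9, a subunit of the immunoproteasome, by 0.35, both with overlapping groups. The 9 tested class II genes had a list mean 0.82 above the wild-type mean in leukaemia 81, with -0.06 in 83 and -0.12 in 85. H2-Eb1 read 5.87, 5.68 and 5.65 against 6.57, 5.99 and 5.72 (adjusted p = 0.839). The median of the class II list was 0.20 and turned to -0.13 without leukaemia 81.

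Markers of lymphocytes were higher on average in the knock-in leukaemias. Of 13 tested T and NK cell markers, 12 differed upward and 6 separated upward (46.2%), with 0 past the threshold and a median of 0.34. Of all genes tested, 49.4% differed upward and 4.22% separated upward. The T and NK list holds Nkg7, which is also in the primary granule list. Against the wild-type mean, the mean log2 value of the T and NK list was 0.67, 0.20 and 0.31 in leukaemias 81, 83 and 85. It was -0.04 to 0.05 in the wild-type leukaemias. Il2rb, a chain of the interleukin receptor of T and NK cells, was at most 5.15 in the wild type and read 6.52, 5.23 and 5.73 in the knock-in arrays (difference 0.76, adjusted p = 0.623). Cd3e, a defining chain of the T cell receptor complex, read 4.87, 4.68 and 4.70 against 5.58, 5.04 and 5.03, close to the filter of 4.61. Ccl5, a chemokine of lymphocytes and interferon-treated cells, read 6.54, 6.16 and 6.20 against 8.76, 6.63 and 6.57. Leukaemia 81 was highest in each. Of 10 tested B cell markers, 9 differed upward and 3 separated upward (30.0%, against 4.22% of all genes). The B cell list mean was 0.48, 0.06 and 0.17 above the wild-type mean in leukaemias 81, 83 and 85. Ighm, the heavy chain of immunoglobulin M, read 8.33, 7.81 and 7.62 against 9.87, 8.47 and 8.68 (difference 1.09, adjusted p = 0.560), beside the rise of Igh-VS107 given above. Cd79a differed by 0.37 (adjusted p = 0.781). The part of lymphocytes in the interferon and immunoglobulin differences was not tested.

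**Figure D3:**
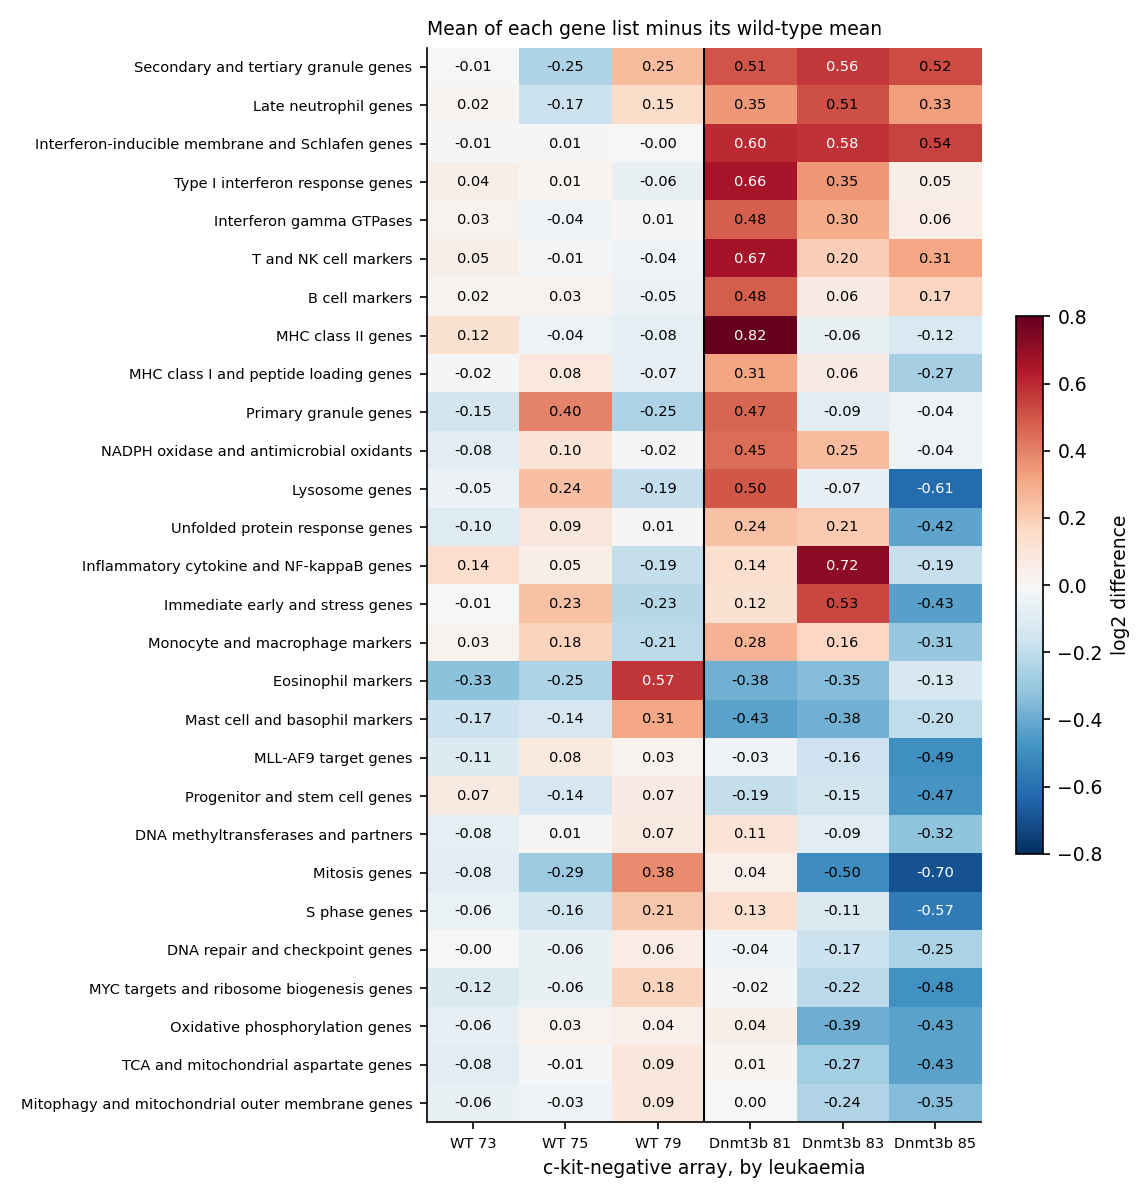
Mean log2 value of the tested genes of 28 gene lists on each c-kit-negative array, minus the mean of the 3 wild-type arrays for that list (colour and printed value, log2). Secondary and tertiary granule, late neutrophil, and interferon-inducible membrane and Schlafen genes are higher in all 3 Dnmt3b-labelled leukaemias, whereas mitosis, oxidative phosphorylation and TCA genes are lower in leukaemias 83 and 85 and near the wild-type mean in leukaemia 81 (0.04, 0.04 and 0.01).

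In the other direction, Flt3 and Cd34 stood lower without passing the threshold. Flt3, a growth factor receptor of progenitors, read 9.16, 9.11 and 7.51 in the wild-type arrays and 6.65, 7.47 and 6.84 in the knock-in arrays. Its difference of -1.61 had an adjusted p of 0.516, and wild-type leukaemia 79 lay within 0.05 of knock-in leukaemia 83. Cd34, a sialomucin of stem and progenitor cells, read 8.68, 7.95 and 8.79 against 7.09, 6.89 and 6.66 (difference -1.59, adjusted p = 0.568). Both separated, and they were the only ones of 16 tested progenitor genes to do so (12.5%, against 4.66% of all genes downward). The list had 6 members above 0, 10 below and a median of -0.06. Of 17 tested MLL-AF9 target genes, Mecom rose, 0 fell and 14 had a difference below 0, with a median of -0.36. Without leukaemia 85 the median was -0.12, and the list means against the wild-type mean were -0.03, -0.16 and -0.49 in leukaemias 81, 83 and 85. Cdk6, a cell cycle kinase required in this leukaemia, read 10.17, 10.72 and 10.42 against 9.98, 9.52 and 9.71 (difference -0.70, adjusted p = 0.351). Hoxa9, a homeobox gene activated by the fusion, read 7.53, 8.25 and 8.03 against 7.89, 7.20 and 7.12 (difference -0.53, adjusted p = 0.788). Leukaemia 81 kept Hoxa9 within the wild-type range and the other knock-in leukaemias lay below it.

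Single genes with the smallest p among those lower came from several systems. Fundc2, a mitochondrial outer membrane protein, read 6.40, 6.52 and 6.78 against 6.02, 5.46 and 5.71 (difference -0.84, adjusted p = 0.109). Blm, the RecQ helicase mutated in Bloom syndrome, read 6.60, 6.64 and 6.65 against 6.12, 6.25 and 5.96 (difference -0.52, adjusted p = 0.165). P2rx1, an ATP-gated channel, read 7.56, 7.75 and 7.67 against 7.06, 7.04 and 7.03 (difference -0.62, adjusted p = 0.222). In these 3 genes the groups did not overlap. Tpcn1, a channel of endosomes and lysosomes, differed by -0.83, Mphosph6, a cofactor of the RNA exosome, by -0.65, Cercam by -0.61 and the G protein gene Gna12 by -0.52. Mdm1, Lsg1 and Hccs differed by -0.44, -0.42 and -0.42, also without overlap and with adjusted p of 0.322 to 0.351.

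Other genes with large differences separated without passing. Ly6a2 read 9.38, 9.88 and 8.55 against 11.65, 10.37 and 11.02 (difference 1.74, adjusted p = 0.320). Clec4b2, a C-type lectin, read 7.46, 7.78 and 7.47 against 9.01, 8.91 and 8.41 (difference 1.21, adjusted p = 0.139). Cstdc4, a stefin-like gene, was lower by a difference of -1.55, Gstp3 by -1.21, Atp1b3, a subunit of the sodium pump, by -1.09 and Tespa1 by -0.98. In Cstdc4 the wild-type values ran from 6.95 to 9.65.

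Mitosis genes were lower on average in knock-in leukaemias 83 and 85 and not in 81. All 23 tested mitosis genes had a difference below 0, with a median of -0.37, yet 0 passed and 0 separated. Aurkb, a mitotic kinase, read 8.05, 7.81 and 8.46 against 7.93, 7.05 and 7.31 (difference -0.68, adjusted p = 0.623). Ect2, which drives cytokinesis, read 8.03, 7.88 and 8.34 against 7.95, 7.17 and 7.16 (difference -0.66, adjusted p = 0.673). In both, leukaemia 81 lay inside the wild-type range. The list mean against the wild-type mean was 0.04, -0.50 and -0.70 in leukaemias 81, 83 and 85, while wild-type leukaemias 73, 75 and 79 stood at -0.08, -0.29 and 0.38. The median was -0.64 without leukaemia 81, -0.23 without 85 and -0.19 without wild-type leukaemia 79. The 21 tested S phase genes had list means of 0.13, -0.11 and -0.57 in leukaemias 81, 83 and 85, against -0.16 to 0.21 in the wild type, so that only leukaemia 85 lay below the wild-type range. Their median of -0.16 became -0.33 without leukaemia 81, -0.07 without 79 and 0.02 without 85. Of 19 tested DNA repair genes, 4 separated downward (21.1%, against 4.66% of all genes), among them Brca2 (-0.34) and Atr (-0.28) beside Blm. The list median of -0.10 became -0.23 without leukaemia 81 and -0.19 without 75.

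Mitochondrial genes were also lower on average in leukaemias 83 and 85 than in 81. The 18 tested genes of the TCA cycle and aspartate shuttle had a median of -0.22, and 7 of them (38.9%) separated downward, against 4.66% of all genes. The median was -0.37 without leukaemia 81. Got2, the mitochondrial aspartate aminotransferase, read 10.05, 9.97 and 9.70 against 9.56, 9.12 and 9.13 (difference -0.64, adjusted p = 0.233). Pdha1, a subunit of pyruvate dehydrogenase, was at least 6.86 in the wild type and read 6.55, 6.69 and 6.20 in the knock-in arrays (difference -0.43, adjusted p = 0.780). Suclg2 and Got1 differed by -0.29 and -0.33. Oxidative phosphorylation genes, 21 tested, had 20 members below 0 and 3 separated downward (14.3%, against 4.66% of all genes). Their median was -0.26, or -0.47 without leukaemia 81 and -0.16 without 83. Atp5b, the catalytic subunit of ATP synthase, read 10.68, 10.67 and 10.62 against 10.53, 10.06 and 9.74 (difference -0.55, adjusted p = 0.566). Leukaemia 85 was the lowest and leukaemia 81 the nearest to the wild type. Of 24 MYC target and ribosome biogenesis genes, 22 were below 0 and 3 separated downward (12.5%, against 4.66% of all genes). Their median was -0.21, or -0.14 without leukaemia 85. Ncl, nucleolin, differed by -0.72 and Npm1, nucleophosmin, by -0.40, and none of the list passed with limma.

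Some members of these lists became calls when leukaemia 81 was left out. Without its 2 arrays 83 genes passed, 16 higher (0.0835%) and 67 lower (0.350%), and all 12 genes of the full fit were among them. Of the 67 lower genes, 45 had leukaemia 81 at or above the lowest wild-type array. The genes named next were chosen after their values were seen. Rps13, a protein of the small ribosomal subunit, read 7.87, 7.87 and 7.73 in the wild-type arrays, 7.66 in leukaemia 81, and 6.87 and 6.39 in leukaemias 83 and 85 (difference without 81 of -1.19, adjusted p = 0.0204 with limma). Hspa9, the mitochondrial chaperone mortalin, read 7.86, 7.99 and 8.03 against 7.80, 7.08 and 6.46. Shmt2, the mitochondrial serine hydroxymethyltransferase, read 7.89, 7.70 and 8.15 against 8.06, 6.89 and 6.49. In each, leukaemia 81 lay within 0.07 of the wild-type range and leukaemias 83 and 85 lay further below it. Also among the 67 were 3 of 23 mitosis genes (Aurkb, Ect2 and Ccnb2) and 2 of 21 oxidative phosphorylation genes (Atp5a1 and Atp5b). So were 1 of 18 TCA and aspartate genes (Got2) and Fundc2, with 0 of the S phase and MYC target lists. Of all genes tested, 0.350% passed as lower in this fit.

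Without leukaemia 85, most of the genes that passed were higher. There 29 genes passed, 27 higher (0.141%) and 2 lower (0.0104%), with 9 of the 12 genes of the full fit among them. Csf3r passed with a difference of 1.31, Zbp1 with 0.98, Oas3 with 0.85, Irf1 with 0.97 and Nfkb2, a subunit of NF-kappaB, with 0.91. In Nfkb2 leukaemia 85 read 6.03, below the wild-type values of 6.23, 6.36 and 6.37, and leukaemias 81 and 83 read 7.14 and 7.32. Leaving out leukaemia 83 brought in Plbd1, a phospholipase-like granule protein, which read 7.26, 7.30 and 7.77 in the wild-type arrays and 9.27, 7.44 and 9.44 in leukaemias 81, 83 and 85. Leaving out wild-type leukaemia 79 brought in Lifr and Klk1b27 as lower genes, which leukaemia 79 read at 5.74 and 4.18 and leukaemias 73 and 75 at 7.77 to 7.82 and 6.04 to 6.18.

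The knock-in leukaemias varied more than the wild-type ones. The median SD of a gene over 3 arrays was 0.177 among the knock-in and 0.117 among the wild-type arrays, and 50 knock-in and 27 wild-type genes had an SD over 1. Among the knock-in arrays the one furthest from the others was leukaemia 85 in 42.3% of genes, 81 in 40.4% and 83 in 17.4%, whereas the wild-type shares were 31.4% to 35.9%. Of the 50 variable knock-in genes, 22 had leukaemia 81 as the outlying array, which was the highest in 19 of them. Leukaemia 85 was the outlying array in 16, and the lowest in all 16.

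Each leukaemia had its own extreme genes. Xist, the RNA that coats the inactive X chromosome, had the largest knock-in SD (2.32), with 10.72, 10.99 and 11.03 in the wild-type arrays and 6.27, 10.63 and 9.83 in the knock-in arrays. The Y-linked genes Eif2s3y, Kdm5d and Uty exceeded the filter value of 4.61 on fewer than 3 of the 12 arrays and were not tested. They read 5.81, 5.34 and 5.58 in leukaemia 81 and 3.19 to 3.54 on the other 5 arrays. Srsy and Astx5, both from families of repeated sex-linked genes, were highest there too, at 11.19 and 10.99 against 7.80 to 8.55 elsewhere. H2-Ab1, a class II chain, read 8.46 in leukaemia 81 and 5.59 to 6.53 on the other arrays. Leukaemia 81 thus differed from all 5 others in these sex-linked genes and in class II expression, and the labels give no sex.

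Leukaemia 83 was set apart by Pcdh7, a protocadherin, at 9.37 against 5.67 to 6.22 elsewhere, and by Cxcl2, a chemokine for neutrophils, at 11.12 against 8.24 to 9.18. Inflammatory cytokine and NF-kappaB genes had a list mean 0.72 above the wild-type mean in this leukaemia, with 0.14 in 81 and -0.19 in 85. Il1b, interleukin-1 beta, read 7.95 there and 6.07 to 6.83 on the other arrays. Immediate early genes gave 0.12, 0.53 and -0.43, and Ier3 read 9.29 in leukaemia 83 against 7.35 to 7.93. Cd69, an early activation receptor, was lowest in leukaemia 85 at 6.14, against 7.97 to 8.99. Lysosome genes ran from 0.50 in leukaemia 81 through -0.07 in 83 to -0.61 in 85.

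The most variable wild-type genes were mostly set by leukaemia 79. Prg2, eosinophil major basic protein, read 9.75 there and 6.14 to 6.60 on the other 5 arrays, and Cpa3, a mast cell carboxypeptidase, read 8.46 against 5.32 to 6.12. The eosinophil list mean was 0.57 above the wild-type mean in leukaemia 79 and -0.13 to -0.38 in the other leukaemias. Pde3b, a cyclic nucleotide phosphodiesterase, was high in wild-type leukaemia 75 and in knock-in leukaemias 81 and 83 (10.12, 10.68 and 10.22) and low in 73, 79 and 85 (5.84, 6.71 and 6.72). Gpnmb, a membrane glycoprotein of macrophages, ran from 6.24 to 9.09 in the wild type and from 6.33 to 7.14 in the knock-in. Ikzf2, Thbs1 and Penk had wild-type SDs of 1.44, 1.42 and 1.40 and differed between the genotypes by 0.31, -0.05 and -0.32.

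**Figure D4:**
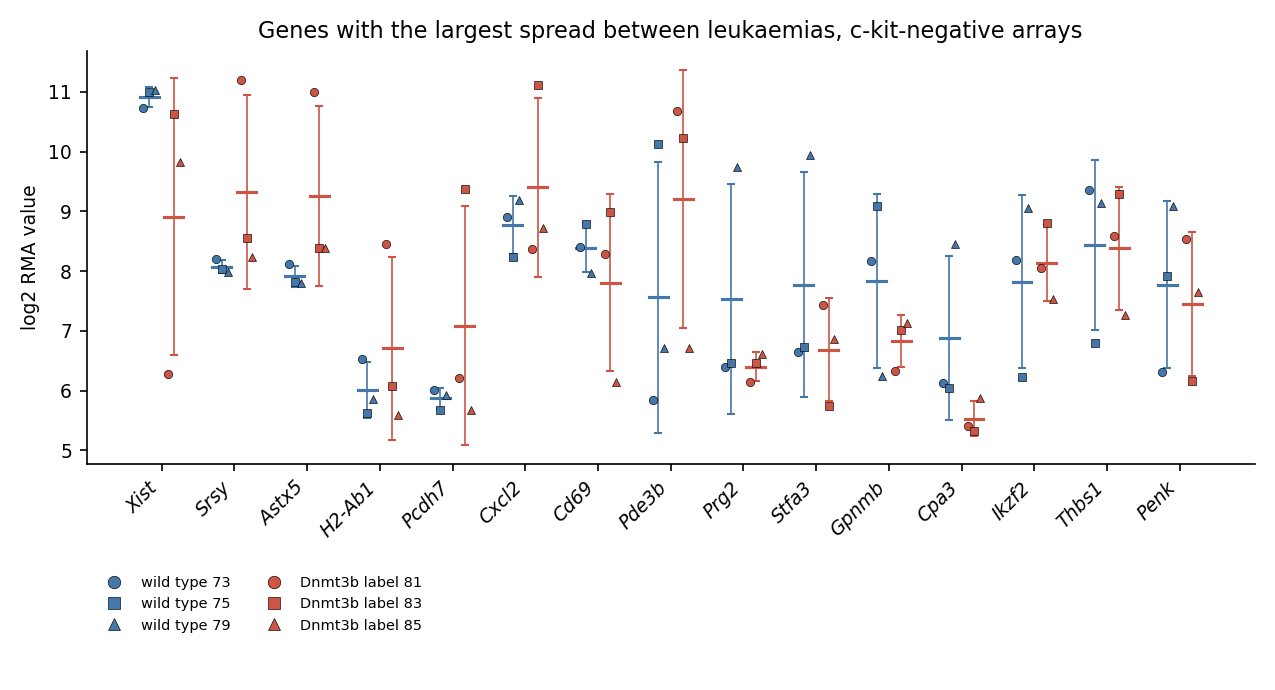
Log2 RMA value on each c-kit-negative array for the 15 genes with the largest SD between the 3 arrays of a genotype (8 per genotype, Pde3b in both), with group means and whiskers of 1 SD (n = 3). Leukaemia 81 stands apart in Xist (6.27), Srsy, Astx5 and H2-Ab1, leukaemia 83 in Pcdh7 and Cxcl2, leukaemia 85 in Cd69, and wild-type leukaemia 79 in Prg2, Stfa3 and Cpa3.

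Genes with a known link to DNA methylation showed no call. Of 15 tested DNA methyltransferases and partner genes, 0 passed with limma and 1 separated in each direction (6.67%). This is near the shares of all genes, 4.22% upward and 4.66% downward. The list median was -0.08, or -0.18 without leukaemia 81 and 0.00 without 85. Tet1, a dioxygenase that removes methyl marks, read 5.52, 5.47 and 5.15 against 5.60, 5.98 and 5.72 (difference 0.39, adjusted p = 0.753). Tet2, a related enzyme, read 7.87, 8.41 and 7.82 against 7.69, 7.71 and 7.11 (difference -0.53, adjusted p = 0.787). Germline genes that methylation keeps silent had 10 tested and 7 untested members below the filter, a median of -0.06 and 0 separations, with Dpep3 at -0.26 and Tdrd9 at 0.24. Of 12 tested imprinted genes, 0 passed, 2 separated upward (16.7%) and 1 downward (8.33%). Igf2r, the receptor that clears insulin-like growth factor, read 5.91, 6.25 and 5.86 against 6.54, 6.42 and 6.35 (difference 0.43, adjusted p = 0.623). Nnat separated downward, with a difference of -0.28 (adjusted p = 0.827). The Polycomb and trithorax list, 20 tested, had a median of -0.04 and 0 separations.

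The c-kit-positive cells of the same leukaemias allow a comparison of the genotype difference between the fractions. There 27 of 19152 genes passed (0.141%), and 7 genes passed in both fractions, which is 58.3% of the c-kit-negative and 25.9% of the c-kit-positive calls. The 7 shared genes were Ltf, Ly6g, Chil1, Fpr2, Mecom, Slfn2 and H2-Q10, with c-kit-positive differences of 2.48, 2.09, 1.88, 1.15, 1.16, 0.90 and -1.75. The fractions come from the same leukaemias, so these are not independent. The other 5 genes had c-kit-positive differences of 1.12 (Ifitm3), 0.57 (Wfdc21), 0.07 (Cxcr2), 0.06 (Igh-VS107) and -0.01 (Clec4a3).

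The interaction test asks whether the genotype difference itself differs between the fractions. With limma, 0 genes passed (smallest adjusted p = 0.735), and 427 (2.23%) had an unadjusted p under 0.05. With the leukaemia as a block it was also 0 (smallest adjusted p = 0.157). Clec4a3 had an interaction of 1.08 (95% confidence interval 0.68 to 1.49), Cxcr2 1.25 (0.70 to 1.79) and Igh-VS107 1.15 (0.68 to 1.62). In c-kit-positive cells Clec4a3 read 4.99 to 5.06 in the wild type and 4.88 to 5.09 in the knock-in, and Cxcr2 read 6.28 to 6.79 and 6.35 to 7.01, so both overlapped there. Smyd2, a lysine methyltransferase, had 0.83 from a c-kit-positive difference of -0.86 beside -0.03 in c-kit-negative cells, and Depdc1a, a mitotic gene, had -0.85. None of these is shown to differ between the fractions. Clec4a3 passed the interaction test in the fit without leukaemia 85 (adjusted p = 0.0315 with limma).

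**Figure D5:**
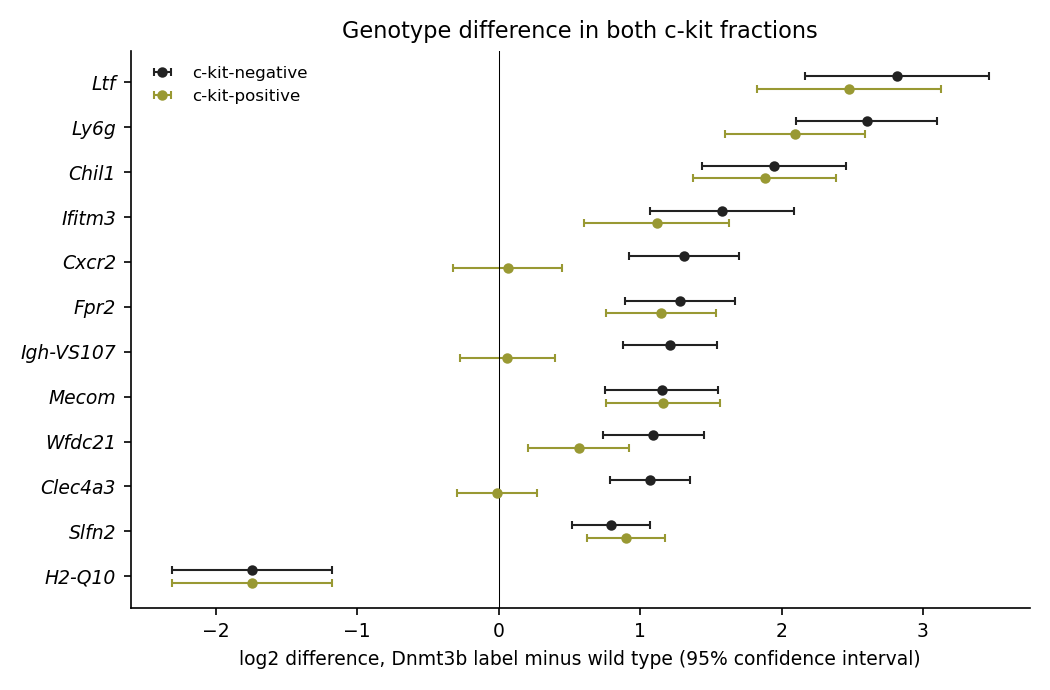
Genotype difference (log2, Dnmt3b label minus wild type, points) with its 95% confidence interval (bars) in c-kit-negative and c-kit-positive cells for the 12 genes past the threshold in c-kit-negative cells, from one limma model of 12 arrays. Cxcr2, Igh-VS107 and Clec4a3 lie at 0.07, 0.06 and -0.01 in c-kit-positive cells, whereas H2-Q10, Chil1, Mecom and Slfn2 have similar differences in both.

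The remaining lists held no call beyond those named. Medians were 0.02 for Fc, complement and phagocytic receptors, 0.08 for leukocyte adhesion and migration genes (where Cxcr2 passed), 0.11 for secreted matrix and protease genes and 0.09 for glycolysis and hypoxia genes. They were 0.08 for p53 targets, -0.05 for the BCL2 family, 0.03 for haem synthesis, -0.03 for cholesterol and fatty acid synthesis, -0.06 for glutathione and redox genes and -0.03 for the unfolded protein response. Leaving out a leukaemia moved several of them, the unfolded protein response to between -0.17 (without 81) and 0.21 (without 85) and the adhesion list to between -0.09 (without 83) and 0.25 (without 85). Glycolysis genes reached 0.22 without leukaemia 79, secreted matrix genes 0.20 and p53 targets 0.19 without 81, and glutathione genes -0.16 without 73. Timp2, an inhibitor of metalloproteinases, read 6.91, 6.84 and 7.41 against 7.61, 7.96 and 7.80 (difference 0.74, adjusted p = 0.560). Mgst1, a microsomal glutathione transferase, separated upward by 0.36 (adjusted p = 0.517), and Sod1, superoxide dismutase, differed by -0.55 with overlap. Among other cell type markers, plasma cell, endothelial and stromal lists had medians of 0.02, 0.03 and -0.03, and erythroid, megakaryocyte and mast cell lists -0.13, -0.16 and -0.06. Without wild-type leukaemia 73 the megakaryocyte median was 0.16.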

How the data were processed

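RNA of 12 arrays was labelled with the Affymetrix whole-transcript protocol, per the labels' protocols. The deposited table held log2 values that the authors made with RMA in Affymetrix Expression Console, per the submitters' processing notes, for 41345 probe sets. RMA normalizes arrays to a common distribution, which can hide a shift shared by most genes. Versions and the genome build are not given in the sources used here, and arrays have no depth.

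Of the probe sets, 23521 had exactly 1 gene symbol, 1814 had several and 16010 were not listed in the probe annotation. The probe set with the highest mean was kept for each of 22180 genes, and 19152 genes above the 25th percentile of the table (log2 4.61) on at least 3 arrays were tested. One limma model (3.58.1, R 4.3.3, statmod 1.5.0) with 4 group means was fitted to all 12 arrays and tested on simulated data, with two-sided tests and Benjamini-Hochberg adjustment over all genes tested. The comparison, lists and rules were chosen with earlier results of these data known.

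Both fractions of a leukaemia share its number in the labels, and their deviations from the group means correlated at 0.279 to 0.601, so the leukaemia was used as a block in an alternative. Other alternatives were repeated quantile normalization, median centring, other filters, averaged probe sets, eBayes with trend and robust settings, the 6 arrays alone, and leaving out each leukaemia or array. Of 818 listed symbols, 737 had a probe set and 691 were tested. Lists were described by counts and medians, without a set test. Named genes were Dnmt3b, Kit, every gene past the threshold, in each direction the 12 with the smallest p and the 10 with the largest difference among separated genes, up to 4 members of each list by p, the 8 with the largest SD per genotype and the 4 with the smallest interaction p. Genes with no name and immune segment genes were skipped unless past the threshold.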

Additional observations from a re-analysis of the deposited data

How the results depend on the processing

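The count of 12 genes past the threshold ranged from 8 to 14 over both normalizations, both filters, averaged probe sets (9) and eBayes with trend and robust settings (11), and was 1 with the 6 c-kit-negative arrays alone. It ranged from 3 to 83 when a leukaemia, or its c-kit-negative array, was left out. With the leukaemia as a replicate block it was 12, of which 11 were among the 12, with Csf3r in place of Ifitm3. The interaction count was 0 in each alternative, except 1 without leukaemia 85 or its c-kit-negative array (range 0 to 1). The difference of Dnmt3b was 0.00 to 0.24 with a leukaemia left out. Signs changed for Kit (-0.048 to 0.15), Ikzf2 (-0.49 to 0.92), Thbs1 (-0.87 to 0.51), Penk (-1.05 to 0.34), H2-Ab1 (-0.17 to 1.26), Cxcl2 (-0.23 to 1.15), Cd69 (-1.18 to 0.25) and Smyd2 (-0.078 to 0.039) when a leukaemia was left out. The cause of these changes was not tested. The number of arrays limits the precision.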
